A study of Mus musculus with 35 samples.

Results

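The 10 alpha- and beta-tubulin isotypes described here were chosen by gene symbol, out of 35976 genes in the count tables. They comprise 3 alpha isotypes (Tuba1a, Tuba1b and Tuba4a) and 7 beta isotypes (Tubb2a, Tubb2b, Tubb3, Tubb4a, Tubb4b, Tubb5 and Tubb6). RNA-seq was performed on medulla and cervical spinal cord of SCA7 266Q/5Q knock-in mice and WT littermates. SCA7 mice carry 1 knock-in ataxin-7 allele coding for 266 glutamines beside 1 normal mouse allele coding for 5, expressed from the gene's own locus rather than in a chosen cell type, as a model of infantile spinocerebellar ataxia type 7. WT littermates lacked the expanded allele, and the labels give no treatment. At 9 weeks each tissue had 5 libraries per genotype, and at 5 weeks each had 2 per genotype. At postnatal day 8 (P8) the labels gave 2 libraries per genotype for the medulla and, for the cervical spinal cord, 2 from SCA7 mice and 1 from a WT mouse. The 35 libraries came from 18 mice, and replicates within a group were separate mice.

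Microtubules are hollow polymers of alpha- and beta-tubulin dimers, and each subunit is encoded by several genes whose proteins differ mainly in their glutamate-rich C-terminal tails. The mix of isotypes changes as the nervous system matures: Tuba1a, Tubb2a, Tubb2b, Tubb3 and Tubb5 are prominent in growing neurons. Tubb4a, by contrast, is the beta isotype of myelinating oligodendrocytes and is also made by neurons, and variants of human TUBB4A cause a hypomyelinating leukodystrophy. Tuba4a is an alpha isotype made without a terminal tyrosine, Tubb4b is widely expressed and part of cilia, and Tubb6 is scarce in the adult brain. In bulk tissue, fewer cells of a type and less RNA per cell cannot be told apart.

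The isotypes have different loci but closely related sequences, and this bears on how their reads could be counted. In GRCm38, with the GENCODE vM21 annotation, Tuba1a lies at chr15:98949837-98953703 and Tuba1b at chr15:98931425-98934565, both on the minus strand. Tubb2a lies at chr13:34074274-34078007 and Tubb2b at chr13:34126748-34130466, again both on the minus strand. The other minus-strand genes are Tuba4a at chr1:75214228-75219865, Tubb4a at chr17:57080066-57087782, Tubb4b at chr2:25222160-25224702 and Tubb5 at chr17:35833921-35838306. Tubb3 at chr8:123411424-123422015 is on the plus strand. The annotated transcript used for each has 4 exons. Tuba1a and Tuba1b are identical at 98.3% of 1356 coding bases, with 23 differences. Tubb2a and Tubb2b are identical at 96.5% of 1338 coding bases, with 47 differences. All other pairs within a class are 80.2% to 85.9% identical. The 120 coding bases in which Tubb2a and Tubb2b differ most are shown because reads over them separate the pair best; capitals mark the bases that differ, and sequences run 5′ to 3′ on the coding strand. The stretch is coding bases 65 to 184, across 2 exons, with 18 differences.
Tubb2a chr13:34076271-34076650: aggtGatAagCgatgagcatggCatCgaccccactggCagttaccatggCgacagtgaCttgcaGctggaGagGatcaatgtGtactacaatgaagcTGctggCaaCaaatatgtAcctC
Tubb2b chr13:34128965-34129347: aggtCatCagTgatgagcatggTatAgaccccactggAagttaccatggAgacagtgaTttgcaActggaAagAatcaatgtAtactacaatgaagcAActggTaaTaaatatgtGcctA

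The last 60 coding bases, stop codon included, are shown for 7 isotypes because they encode the tails, in which most of these proteins differ. The Tubb2a and Tubb2b stretches differ in bases but encode the same residues. Capitals mark glutamate codons. Tubb4b has 10 of them in this stretch, Tubb4a and Tubb5 have 9, Tubb2a and Tubb2b have 8, and Tuba4a and Tubb3 have 7. Tuba4a ends in a glutamate codon before the stop, and so has no terminal tyrosine.
Tuba4a chr1:75215622-75215681: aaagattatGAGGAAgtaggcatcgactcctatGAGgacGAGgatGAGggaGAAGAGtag
Tubb2a chr13:34074468-34074527: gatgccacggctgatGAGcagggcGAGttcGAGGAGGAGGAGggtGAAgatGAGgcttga
Tubb2b chr13:34127471-34127530: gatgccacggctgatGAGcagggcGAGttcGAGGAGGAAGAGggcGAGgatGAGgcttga
Tubb3 chr8:123421623-123421682: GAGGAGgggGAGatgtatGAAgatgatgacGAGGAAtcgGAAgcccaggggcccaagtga
Tubb4a chr17:57080690-57080749: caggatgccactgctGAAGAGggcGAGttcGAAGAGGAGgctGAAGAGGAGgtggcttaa
Tubb4b chr2:25222308-25222367: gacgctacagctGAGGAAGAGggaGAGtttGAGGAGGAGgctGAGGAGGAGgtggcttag
Tubb5 chr17:35834982-35835041: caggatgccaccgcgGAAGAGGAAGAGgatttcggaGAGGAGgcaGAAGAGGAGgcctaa

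Several libraries stood apart from the rest. Depth fell into separate classes, with no library between them: 15 deep libraries held 28969003 to 99353286 counts, and 20 shallow libraries held 95917 to 396417. A count of 3, taken as the floor, was worth 0.0302 to 0.1036 CPM (counts scaled to a common library total) in deep libraries and 7.568 to 31.28 CPM in shallow ones. At 9 weeks each group held 2 deep and 3 shallow libraries. For the medulla at 5 weeks, the WT libraries were deep and those of SCA7 mice were shallow. SCA7 medulla replicate 2 at 9 weeks stood apart in the share of counts taken by mitochondrial COX1 (25.9%). Position markers went against the tissue labels at P8. The summed level of 7 caudal Hox genes was 150 to 736 CPM in adult libraries labelled cervical spinal cord and 0 to 134 CPM in those labelled medulla. At P8 it was 424 to 626 CPM in the 4 libraries labelled medulla and 35.9 to 112 CPM in the 3 labelled cervical spinal cord. Of the 5 medulla-position genes, the sum was 29.1 to 186 CPM in adult medulla libraries and 2.77 to 9.69 CPM in P8 libraries labelled medulla. It was 0 to 17.2 CPM in adult cervical spinal cord libraries and 0 to 60.2 CPM in P8 libraries of that label, so that this list went against the cervical spinal cord label at P8 in part only. P8 tissues are therefore called by their labels only, and the 9-week changes of the isotypes that passed are also given with both tissue labels together, a fit in which 1 mouse can give 2 libraries, so that its p-values are too small. The same was not done at 5 weeks or for other genes. At P8 all 3 WT libraries were deep, while of the SCA7 libraries 1 labelled medulla was deep and the other 3 were shallow. The knock-in inserts a repeat, which gene counts do not show, so the level of Atxn7 does not check the genotypes.

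All 10 isotypes were counted in every library, from 2 reads of Tubb6 in a shallow library to 150270 reads of Tuba1a in a deep one. Levels below are normalized CPM, and levels are compared between genes only per kilobase of transcript (CPM per kb). In WT medulla at 9 weeks Tubb4a led with 489 ± 36.7 CPM per kb (SD, n = 5), followed by Tubb3 at 286 ± 44 and Tuba1a at 274 ± 39.1. The 5 Tubb4a values, 436 to 533, lay above all others, whereas Tubb3 (227 to 341) and Tuba1a (233 to 317) overlapped. Below them, Tubb4b, Tubb5, Tubb2a, Tuba1b and Tuba4a followed in that order, from 176 to 107 CPM per kb, and each overlapped its neighbour. The order of Tuba1b and Tuba4a turned with depth: Tuba1b was at 58 to 65.3 CPM per kb in the 2 deep libraries and 159 to 178 in the 3 shallow ones, and Tuba4a at 129 to 140 and 63.2 to 110. Tubb2b (33.1 ± 8.93 CPM per kb) and Tubb6 (21 ± 19.4) were lowest, and their ranges overlapped over all 5 libraries but not in the deep ones. In deep libraries Tubb2b was at 36.7 to 41.6 CPM per kb and Tubb6 at 0.567 to 0.598. In shallow ones they were at 18.7 to 37.7 and 27.9 to 43.1. In WT cervical spinal cord at 9 weeks Tubb4a again led, at 619 ± 125 CPM per kb, and its range of 528 to 836 did not overlap that of Tuba1a (291 to 437). In SCA7 cervical spinal cord it was still first at 265 ± 42.6 CPM per kb, but its range of 214 to 327 overlapped that of Tubb3 (190 to 265).

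**Figure D1:**
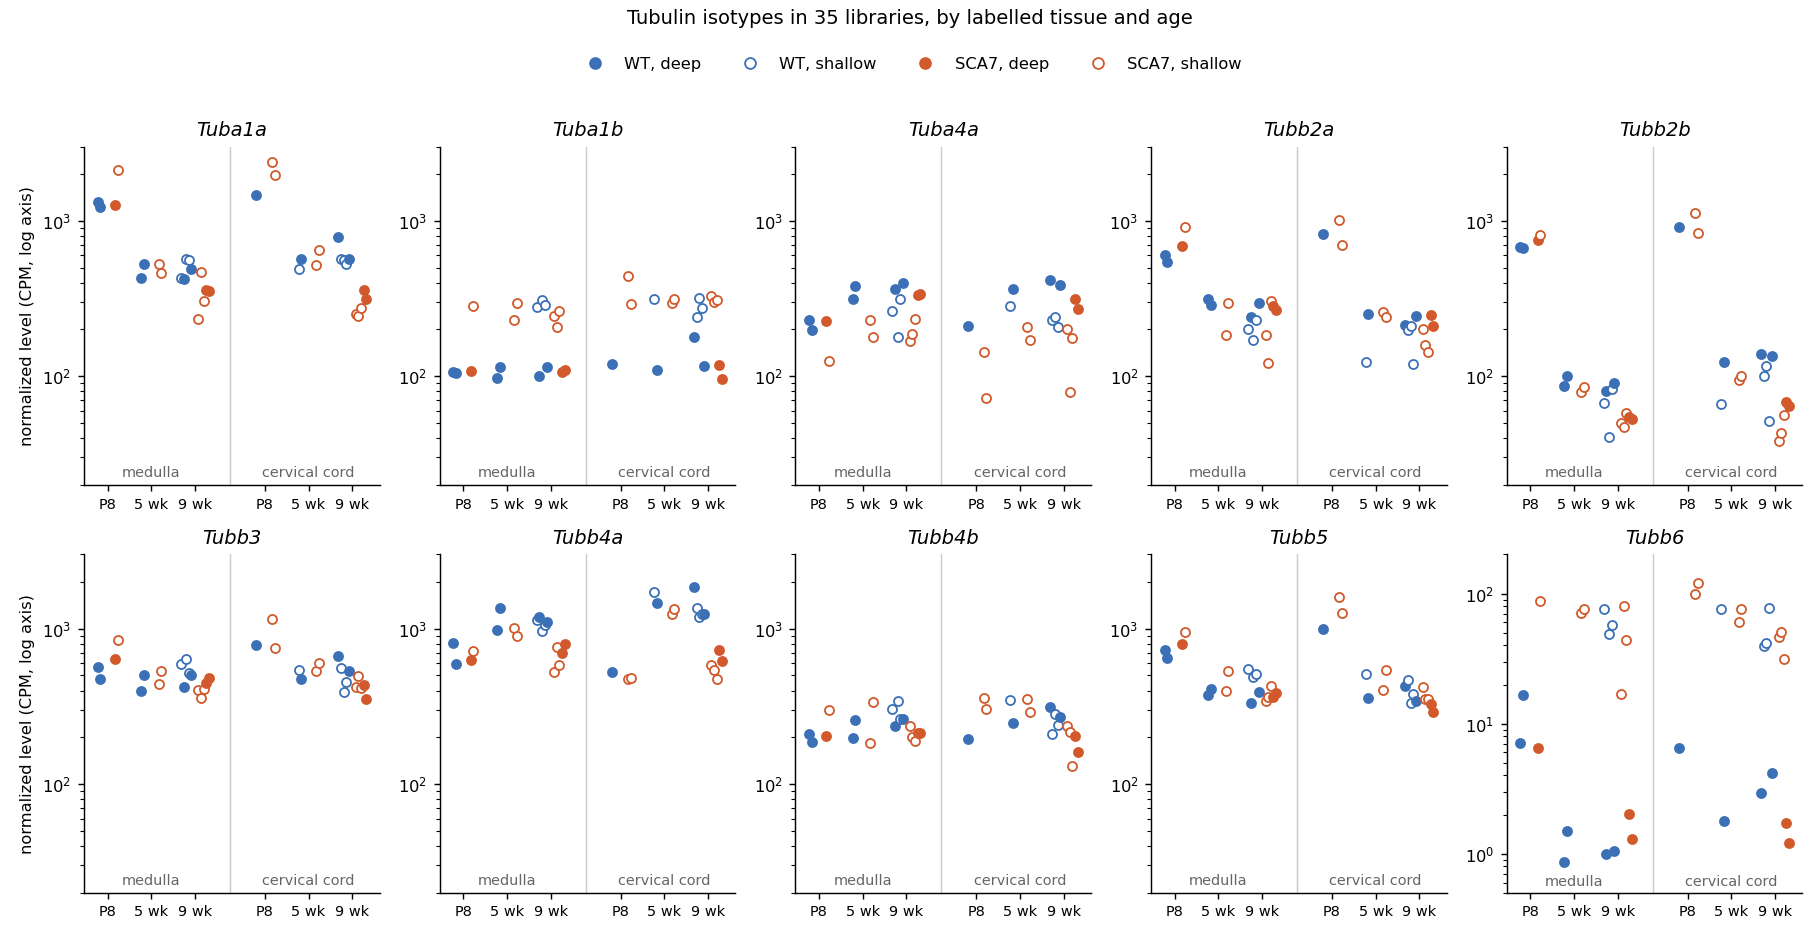
Normalized level (CPM, log axis; Tubb6 has its own range) of each isotype in the 35 libraries, by labelled tissue, age and genotype, with 1 point per library, filled for deep and open for shallow libraries. Tubb2b is at 672 to 1120 CPM at P8 and 38.4 to 138 CPM later, and Tuba1b and Tubb6 separate by depth.

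Tubb2b, an isotype of migrating and growing neurons, had the largest change with age of the isotypes that passed the test. In WT libraries labelled medulla it was at 682 and 672 CPM at P8. Later it was at 86.6 and 100 CPM at 5 weeks and at 67.3, 80.1, 40.8, 82.2 and 90.8 CPM at 9 weeks. No later value came near those at P8. The log2 fold change from P8 was -2.99 ± 0.23 (SE) at 5 weeks (adjusted p = 2.94e-07) and -3.23 ± 0.18 at 9 weeks (adjusted p = 6.83e-09), both by the quasi-likelihood test of edgeR with Benjamini-Hochberg adjustment over all genes tested, as for every adjusted p below. At 9 weeks this is a 9.4-fold lower level. In SCA7 mice the log2 fold change of Tubb2b from P8 to 9 weeks was -3.98 for libraries labelled medulla (adjusted p = 1.02e-09) and -4.17 for those labelled cervical spinal cord (adjusted p = 8.35e-08). With both labels together, an alternative chosen after the data were seen, the log2 fold changes were -3.03 in WT and -4.00 in SCA7 mice (adjusted p = 4.27e-07 and 2.11e-11).

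Tuba1a, the main alpha isotype of developing neurons, also fell. It was at 1310 and 1220 CPM in the P8 WT libraries labelled medulla. In WT medulla it was at 429 and 530 CPM at 5 weeks and at 429, 421, 571, 559 and 486 CPM at 9 weeks. The ranges did not overlap, and the log2 fold change was -1.53 ± 0.29 at 5 weeks (adjusted p = 0.00129) and -1.43 ± 0.23 at 9 weeks (adjusted p = 0.000261). In SCA7 mice it was -2.35 ± 0.23 for libraries labelled medulla (adjusted p = 3.61e-06) and -2.97 ± 0.21 for those labelled cervical spinal cord (adjusted p = 1.17e-07). With both labels together it was -1.32 in WT and -2.61 in SCA7 mice (adjusted p = 3.23e-05 and 5.87e-08). The difference between genotypes in the change, for the medulla label, was -0.92 ± 0.35 and did not pass (adjusted p = 0.419). The P8 level was 1270 CPM in the deep SCA7 library and 1970 to 2400 CPM in the shallow ones, against 1220 to 1460 CPM in WT libraries, all deep. Genotype and depth thus cannot be told apart in most P8 values, here and for the other isotypes.

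Tubb2a and Tubb5, further beta isotypes of the growing neuron, moved the same way. Tubb2a fell by 1.38 on the log2 scale between P8 and 9 weeks in WT mice (adjusted p = 0.000644), and its log2 fold changes in SCA7 mice were -1.81 for the medulla label and -2.21 for the cervical spinal cord label (adjusted p = 0.000101 and 5.19e-05). Tubb5 fell by 0.68 in WT mice (adjusted p = 0.026), and was at -1.27 and -2.11 in SCA7 mice (adjusted p = 0.00049 and 4.66e-05). With both labels together the WT and SCA7 values were -1.64 and -1.94 for Tubb2a (adjusted p = 2.48e-05 and 3.55e-06) and -0.95 and -1.68 for Tubb5 (adjusted p = 0.00215 and 2.23e-06). The WT call for Tubb5 held in 7 of 16 alternatives and was lost without 9-week replicate 2 or 5 and without either P8 library. At 5 weeks Tubb2a and Tubb5 in WT medulla were lower by label than at P8, with log2 fold changes of -1.06 ± 0.30 and -0.94 ± 0.25 (adjusted p = 0.0195 and 0.0137). Tubb2a at 5 weeks lost its call without any 1 of the 4 libraries (P8 replicates 1 and 2, 5-week replicates 1 and 2), and Tubb5 without any of them but P8 replicate 2. Over all libraries, Tuba1a was at 1220 to 2400 CPM in 7 P8 libraries and 235 to 788 CPM in 28 later ones. The like ranges were 544 to 1010 against 120 to 315 CPM for Tubb2a and 647 to 1610 against 291 to 547 CPM for Tubb5, so that for each of these isotypes, as for Tubb2b, P8 and later libraries did not overlap whatever their tissue label, genotype or depth. The share of all genes that separate by age in this way was not counted, so whether this is unusual is not known.

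Tubb3, the isotype widely used to mark neurons, fell in SCA7 mice, with log2 fold changes of -0.86 for the medulla label and -1.24 for the cervical spinal cord label (adjusted p = 0.00612 and 0.00499). With both labels together it was -1.01 (adjusted p = 0.000257). The first call was lost without either P8 library, and the second without P8 replicate 1. Its P8 level was 636 CPM in the deep SCA7 library and 750 to 1150 CPM in the 3 shallow ones, against 477, 570 and 790 CPM in the WT libraries, all deep, so that genotype and depth cannot be told apart in most of the P8 values. In WT mice its log2 fold change between P8 and 9 weeks was -0.05 ± 0.20 (adjusted p = 0.909). The difference between genotypes in this change was -0.81 ± 0.28 and did not pass the test (adjusted p = 0.365).

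Tubb4a was the one isotype with a rise that passed the test. It was at 814 and 591 CPM in WT libraries labelled medulla at P8 and at 975 and 1350 CPM at 5 weeks. At 9 weeks it was at 1130, 1190, 971, 1050 and 1110 CPM, all above both P8 values. The log2 fold change at 9 weeks was 0.57 ± 0.20 (adjusted p = 0.0462), and that at 5 weeks was 0.60 ± 0.23 and did not pass (adjusted p = 0.0739). The 9-week call held in 6 of 16 alternatives and was lost without any one of the libraries except 9-week WT replicate 3 (log2 fold changes over all alternatives 0.33 to 0.91, adjusted p 0.00396 to 0.508). With both tissue labels together it was 0.91 (adjusted p = 0.00396). In SCA7 mice the log2 fold change between P8 and 9 weeks was -0.05 ± 0.19 for the medulla label (adjusted p = 0.906) and 0.24 ± 0.24 for the cervical spinal cord label (adjusted p = 0.752). The difference between genotypes in the change was -0.62 ± 0.27 in the medulla by label and did not pass the test (adjusted p = 0.54).

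In counts, 4 of 10 isotypes passed the test between P8 and 5 weeks in WT medulla by label, all lower, where 18.5% of all genes tested did. Between P8 and 9 weeks, 5 of 10 passed in WT medulla (4 lower, 1 higher; 21.8% of all genes), 5 of 10 in SCA7 medulla (all lower; 16.1%) and 5 of 10 in SCA7 cervical spinal cord (all lower; 4.18%). The median log2 fold change over the isotypes was -0.36, -1.07 and -1.67 in these 9-week comparisons, against -0.15, 0.02 and 0.33 over all genes tested. For the difference between genotypes in the medulla, 0 isotypes passed by edgeR and 0 by DESeq2, where 0.0237% of genes (5 of 21133) did by edgeR. At an unadjusted p under 0.05 it was seen for 4 isotypes (Tuba1a, Tubb2b, Tubb3 and Tubb4a, from 0.0106 to 0.0358) and 1781 genes. Markers of other states moved with age in the same libraries: the summed level of 7 genes of immature neurons was 1580 to 2890 CPM at P8 and 169 to 729 CPM later, and that of 5 genes of oligodendrocyte precursors was 488 to 951 CPM at P8 and 33.5 to 268 CPM later. Their part in the isotype changes was not tested.

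As a share of the reads counted for the 7 beta isotypes, Tubb4a went from 20.6% ± 2.62 (SD, n = 2) at P8 to 44.1% ± 3.54 (n = 2) at 5 weeks and 40.5% ± 4.34 (n = 5) at 9 weeks in WT medulla by label. Tubb2b went the other way, from 20.1% ± 1.77 to 3.57% ± 0.17 and 2.70% ± 0.784. In WT libraries labelled cervical spinal cord the share of Tubb4a was 12.4% in the single P8 library, 50.5% ± 0.636 (n = 2) at 5 weeks and 47.5% ± 2.49 (n = 5) at 9 weeks. Among the 3 alpha isotypes, Tuba1a took 79.8% ± 0.354 of WT medulla reads by label at P8 and 48.5% ± 3.43 at 9 weeks, while Tuba4a went from 13.5% ± 0.707 to 30.4% ± 10.1. The P8 libraries were deep, whereas the 9-week value pools both depth classes. At 9 weeks the Tuba4a share was 39.8% and 41.2% in deep libraries and 16.9% to 27% in shallow ones. Counted per length, the share of Tubb4a in WT medulla was 19% ± 2.4 at P8 and 37.2% ± 4.04 at 9 weeks. The isotypes together held 4960 ± 431 CPM in WT medulla by label at P8 and 3710 ± 202 CPM at 9 weeks. Shares and sums are descriptions, with no test.

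**Figure D2:**
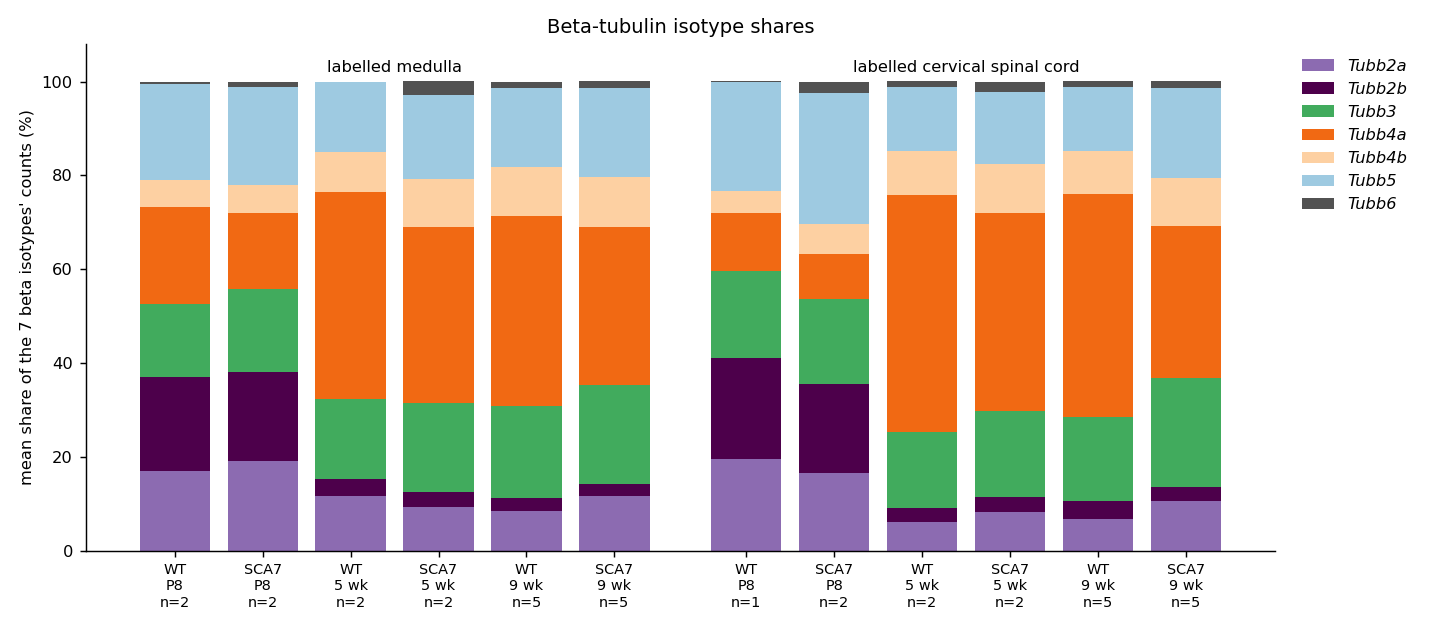
Mean share (%) of each beta isotype in the reads counted for the 7 beta isotypes, by labelled tissue, genotype and age, with the number of libraries under each bar. The share of Tubb4a is 20.6% at P8 and 40.5% at 9 weeks in WT medulla, and 47.5% in WT against 32.3% in SCA7 cervical spinal cord at 9 weeks.

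The comparison of SCA7 with WT mice asked how expression differed in the tissues that hold the hypoglossal and phrenic motor pools. At 9 weeks Tubb4a was lower in SCA7 mice in both tissues. In the cord, Tubb4a was at 1860, 1360, 1180, 1240 and 1250 CPM in WT mice. In SCA7 mice it was at 583, 539, 476, 730 and 619 CPM. The highest SCA7 value lay well under the lowest WT value, in deep and shallow libraries alike. The means were 1380 ± 277 and 589 ± 95.0 CPM (SD, n = 5 each), a 2.36-fold lower level in SCA7 mice (log2 fold change -1.24 ± 0.20, adjusted p = 0.00223). The call held in 20 of 21 alternatives and was lost with the 4 deep libraries alone (-1.17, adjusted p = 0.2).

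In medulla, Tubb4a was at 1130, 1190, 971, 1050 and 1110 CPM in WT mice. In SCA7 mice it was at 528, 758, 583, 695 and 793 CPM. The groups did not overlap here either. The level was 1.59-fold lower in SCA7 mice, with means of 1090 ± 83.3 and 671 ± 113 CPM (log2 fold change -0.67 ± 0.17, adjusted p = 0.0283). This call was less stable than its direction: it held in 10 of 21 alternatives, while the log2 fold change stayed between -0.84 and -0.61 in all 21. It was lost without WT replicate 1, 2 or 5 and without SCA7 replicate 4 or 5, and it was past the threshold in the 4 deep libraries alone (-0.65, adjusted p = 0.00546) but not in the 6 shallow libraries alone (-0.75, adjusted p = 0.492). The change in cervical spinal cord minus that in medulla was -0.53 ± 0.25 on the log2 scale, and a difference between tissues was not shown (adjusted p = 0.424).

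Tuba1a was lower in SCA7 cervical spinal cord at 9 weeks. Its level was 788, 568, 559, 525 and 565 CPM in WT mice. In SCA7 mice it was 253, 244, 275, 356 and 314 CPM. The groups did not overlap, and the level was 2.09-fold lower in SCA7 mice, at 288 ± 46.4 against 601 ± 106 CPM (log2 fold change -1.07 ± 0.19, adjusted p = 0.00398). The call held in 19 of 21 alternatives and was lost with library totals (-0.72, adjusted p = 0.101) and in the 4 deep libraries alone (-0.98, adjusted p = 0.211). Because Tuba1a and Tuba1b share most of their coding sequence, their summed level was also compared: it was 681 to 968 CPM in WT and 410 to 583 CPM in SCA7 cervical spinal cord, without overlap. With Tuba1c, whose level differed by depth as given below, the sum was 682 to 1710 CPM in WT and 410 to 1070 CPM in SCA7 mice. These ranges overlapped over both depth classes, but not within either class. Deep libraries held 682 and 970 CPM in WT and 410 and 475 CPM in SCA7 mice. Shallow libraries held 1290 to 1710 CPM in WT and 920 to 1070 CPM in SCA7 mice. In medulla, Tuba1a was at 429, 421, 571, 559 and 486 CPM in WT mice. In SCA7 medulla it was at 235, 470, 306, 357 and 355 CPM. SCA7 replicate 2, the library with the large COX1 share, lay within the WT range, and the log2 fold change of -0.48 ± 0.21 did not pass the test (adjusted p = 0.206). Without that library it was -0.64 (adjusted p = 0.0299). The difference between tissues was -0.53 ± 0.27 (adjusted p = 0.513).

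Tubb2b, low in all adult libraries, had a lower level in SCA7 cervical spinal cord with overlapping groups. It was at 138, 99.6, 117, 51.6 and 134 CPM in WT mice. In SCA7 mice it was at 38.4, 43.1, 56.4, 68.4 and 64 CPM. WT replicate 4, a shallow library with 6 reads of the gene, lay among the SCA7 values. The log2 fold change was -0.99 ± 0.25 (adjusted p = 0.0326), a call that held in 6 of 20 alternatives and was lost without WT replicate 1 or 3 and without any 1 SCA7 library. In medulla, Tubb2b was at 40.8 to 90.8 CPM in WT and 47 to 58.3 CPM in SCA7 mice, and its log2 fold change of -0.49 ± 0.22 did not pass the test (adjusted p = 0.24). It passed in 3 of 20 alternatives. Without SCA7 replicate 2 the log2 fold change was -0.63 (adjusted p = 0.00304). With depth class as a term it was -0.61 (adjusted p = 0.000758), and in deep libraries alone -0.7 (adjusted p = 0.00308). In shallow libraries alone it was -0.28 (adjusted p = 0.859).

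**Figure D3:**
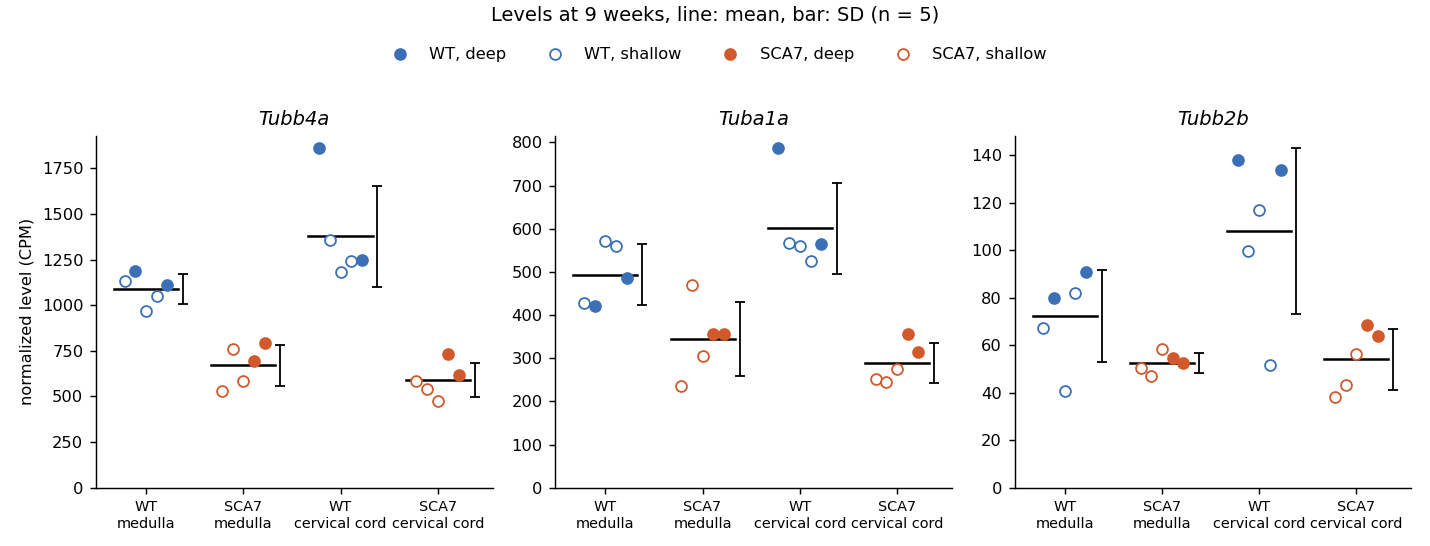
Normalized level (CPM) of Tubb4a, Tuba1a and Tubb2b at 9 weeks, with 1 point per library (filled for deep, open for shallow), a line at the mean and a bar for the SD of 5 libraries. For Tubb4a the SCA7 points lie at 476 to 793 CPM, below all WT points in the same tissue, and the groups overlap for Tuba1a in medulla and for Tubb2b in both tissues.

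The other isotypes did not pass the test at 9 weeks. Tubb4b, a component of cilia as well as of the general cytoskeleton, was at 237 to 343 CPM in WT and 189 to 235 CPM in SCA7 medulla, without overlap, but its log2 fold change of -0.39 ± 0.19 did not pass (adjusted p = 0.269). The log2 fold change of Tubb4b in cervical spinal cord was -0.51 ± 0.21 (adjusted p = 0.229). Those of Tubb3 were -0.32 ± 0.18 in medulla and -0.32 ± 0.20 in cervical spinal cord (adjusted p = 0.372 and 0.46). Tubb2a, the close relative of Tubb2b, was at 0.05 ± 0.24 in medulla and -0.05 ± 0.22 in cervical spinal cord (adjusted p = 0.95 and 0.963). In all, 1 of 10 isotypes passed in medulla, where 6.97% of 19157 genes did, and 3 of 10 in cervical spinal cord, where 5.06% of 19263 genes did, each of them lower in SCA7 mice. The median log2 fold change of the isotypes was -0.28 in medulla and -0.51 in cervical spinal cord, against 0.08 and -0.02 over all genes tested. Of 2421 genes with enough reads in the shallow medulla libraries, 3.72% had every SCA7 value below every WT value, as Tubb4a and Tubb4b did. In cervical spinal cord it was 3.94% of 2411 genes, among them Tubb4a and Tuba1a. The summed level of the isotypes was 3710 ± 202 CPM in WT and 2770 ± 219 CPM in SCA7 medulla, and 4010 ± 579 and 2550 ± 203 CPM in cervical spinal cord.

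**Figure D4:**
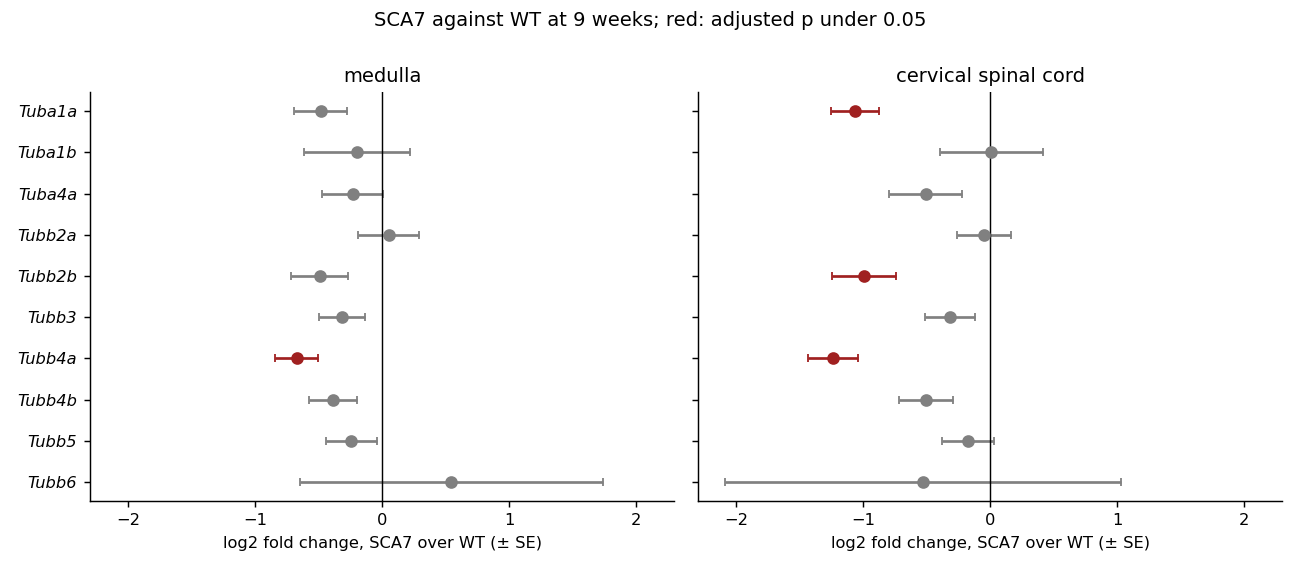
Log2 fold change of each isotype in SCA7 against WT mice at 9 weeks, with SE bars from the fit over all genes, in medulla (left) and cervical spinal cord (right). Points in red had an adjusted p under 0.05: Tubb4a in medulla (-0.67), and Tubb4a (-1.24), Tuba1a (-1.07) and Tubb2b (-0.99) in cervical spinal cord.

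Tubb4a made up less of the beta-tubulin reads in SCA7 cervical spinal cord, at 32.3% ± 3.75 (29.1% to 36.5%) against 47.5% ± 2.49 (45.1% to 51.4%) in WT mice. In medulla the shares overlapped, at 33.6% ± 4.34 against 40.5% ± 4.34. The shares of Tubb3 and Tubb5 in SCA7 cervical spinal cord were 23.3% ± 2.73 and 19.2% ± 2.55, against 18.0% ± 1.52 and 13.6% ± 1.75 in WT mice.

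Markers of some cell types were also lower at 9 weeks, where 6.97% of all genes passed the test in medulla and 5.06% in cervical spinal cord. Of 12 oligodendrocyte genes, among them Ugt8a, an enzyme gene of myelin lipid synthesis (log2 fold change -2.36 in medulla and -2.43 in cervical spinal cord), 7 were lower in SCA7 medulla and 11 in SCA7 cervical spinal cord. Their summed level was 18500 to 44700 CPM in WT and 9740 to 37300 CPM in SCA7 medulla. The cervical spinal cord sums were 32800 to 105000 CPM in WT and 15500 to 36400 CPM in SCA7 mice. The astrocyte list of 8 genes was lower for 5 genes in medulla and 4 in cervical spinal cord, with sums of 2500 to 4050 against 805 to 1540 CPM and 2760 to 6260 against 1230 to 2200 CPM. Of 12 neuron genes, 0 passed the test in either tissue. Their sums were 7230 to 9090 CPM in WT and 6220 to 7440 CPM in SCA7 medulla. In cervical spinal cord they were 4890 to 12400 CPM in WT and 6940 to 9140 CPM in SCA7 mice. Of 7 microglia genes, 3 were lower in medulla and 1 in cervical spinal cord, with sums of 185 to 244 against 101 to 158 CPM and 149 to 413 against 68.9 to 191 CPM. Of 5 oligodendrocyte precursor genes, 2 and 1 were lower, with sums of 89.8 to 189 against 33.5 to 104 CPM and 77.4 to 207 against 43.1 to 116 CPM. Of 5 ependymal genes, 2 were lower in medulla, with sums of 8.22 to 49 against 8.38 to 26.8 CPM. These sums lie near the floor of the shallow libraries (7.568 to 31.28 CPM). In cervical spinal cord 0 ependymal genes passed. In the groups compared here, no gene of these 6 lists was at 0 in all libraries of a group. Of 6 motor neuron genes, 1 passed in medulla and 0 in cervical spinal cord. Of 7 immature neuron genes, 1 passed in each tissue, and of 6 endothelial genes 0 passed in either. The part of all these markers in the levels of the isotypes was not tested.

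Among genes that act on tubulin, 1 of 27 microtubule-associated proteins was lower in SCA7 medulla at 9 weeks (3.70%, against 6.97% of all genes) and 3 in SCA7 cervical spinal cord (11.1%, against 5.06%). Tppp, which encodes a tubulin polymerization-promoting protein of oligodendrocytes, was lower in both tissues, with log2 fold changes of -0.94 ± 0.26 and -1.24 ± 0.26 (adjusted p = 0.041 and 0.0107). Its level in cervical spinal cord was 179 to 452 CPM in WT and 71.9 to 171 CPM in SCA7 mice. Stmn4, of the tubulin-binding stathmin family, was at -1.29 ± 0.24 (adjusted p = 0.00576), and Mapt, which encodes tau, at -0.99 ± 0.24 (adjusted p = 0.0255). The median of this list was -0.13 in medulla and -0.09 in cervical spinal cord. By edgeR, 0 of 12 folding cofactors, 21 modifying enzymes, 6 severing enzymes and the other tubulins tested (7 in medulla, 6 in cervical spinal cord) passed in either tissue.

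With age, 21.8% of all genes passed in WT medulla by label at 9 weeks. The shares of these lists were 22.2% of microtubule-associated proteins, 23.8% of modifying enzymes and 16.7% of severing enzymes (1 of 6 genes). They were 25% of the other tubulins (2 of 8) and 0% of 12 folding cofactors. Dcx, which encodes doublecortin, a microtubule-binding protein of migrating neurons, fell in each comparison with P8. In WT medulla by label its log2 fold change was -2.01 at 5 weeks and -2.10 at 9 weeks, while in SCA7 mice at 9 weeks its log2 fold changes were -2.35 for the medulla label and -3.13 for the cervical spinal cord label. Dcx also stands among the immature neuron genes above. In WT medulla at 9 weeks by label, 3 microtubule-associated proteins were higher and 3 lower than at P8. Mapre1, which encodes the plus-end protein EB1, fell by 1.61 (adjusted p = 8.24e-05), and Map4 rose, with a log2 fold change of 1.10 (adjusted p = 0.00263). Of 21 modifying enzymes, 2 were higher and 3 lower: the polyglutamylase gene Ttll5 was at 1.21, Svbp, which encodes the partner of the detyrosinating vasohibins, at -1.49, and Vash1 at -1.29. In SCA7 medulla by label 7 modifying enzymes were lower and 0 higher (33.3%, against 16.1% of all genes), led by the tyrosine ligase gene Ttl (-1.35) and the deglutamylase gene Agbl5 (-1.34). Of 12 folding cofactors, 1 was higher in SCA7 medulla by label (8.33%, against 16.1% of all genes). This was Pfdn2, which encodes a prefoldin subunit, with a log2 fold change of 1.76 (adjusted p = 0.0348). Severing enzymes were lower for 1 of 6 genes in WT medulla at 9 weeks, Spast, which encodes spastin (-0.97, adjusted p = 0.0172).

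At 5 weeks the comparison in medulla cannot be told apart from depth, since depth class and genotype coincide. In that comparison 2 of 10 isotypes passed, where 0.846% of all genes did. Tuba1b was at 97.9 and 115 CPM in WT and at 229 and 297 CPM in SCA7 medulla (log2 fold change 1.44 ± 0.23, adjusted p = 0.0394). Tubb6 was at 0.864 and 1.49 CPM in WT and at 70.5 and 76.4 CPM in SCA7 medulla, values that rest on 8 and 9 reads in the SCA7 libraries (6.09 ± 0.55, adjusted p = 0.00193). Both calls were lost without either SCA7 library. The same isotypes separated by depth at 9 weeks within each genotype, as described below. Tubb4a was at 975 and 1350 CPM in WT and at 1010 and 900 CPM in SCA7 medulla, with a log2 fold change of -0.15 ± 0.20 (adjusted p = 0.889).

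In cervical spinal cord at 5 weeks, 1 of 10 isotypes passed, where 0.728% of all genes did. This was Tubb6, at 75.8 CPM in the shallow and 1.79 CPM in the deep WT library and at 60.5 and 76.8 CPM in the SCA7 libraries, both shallow. The shallow libraries of both genotypes had like values, and without the deep library, WT replicate 2, the log2 fold change went from 3.09 to -0.16. The call was also lost without either SCA7 library. Tubb4a was at 1730 and 1460 CPM in WT and at 1240 and 1330 CPM in SCA7 cervical spinal cord, without overlap, but its log2 fold change of -0.17 ± 0.46 did not pass the test (adjusted p = 0.946). At P8 in libraries labelled medulla, 0 of 10 isotypes passed by edgeR, where 0.00% of 20564 genes did (559 at an unadjusted p under 0.05), and 0 passed by DESeq2. Tubb4a was at 814 and 591 CPM in WT and 627 and 717 CPM in SCA7 mice there. The P8 libraries labelled cervical spinal cord, with a single WT mouse, were not tested, and held Tubb4a at 524 CPM in the WT mouse and 476 and 484 CPM in SCA7 mice.

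Between the tissues at 9 weeks, with each mouse as a block, 0 isotypes passed in either genotype by edgeR or by DESeq2 (Tubb2b in WT mice had an unadjusted p of 0.0134), where 7.63% of all genes did in WT and 6.40% in SCA7 mice. The log2 difference of Tubb4a, cervical spinal cord over medulla, was 0.32 ± 0.17 in WT mice (adjusted p = 0.342) and -0.21 ± 0.18 in SCA7 mice (adjusted p = 0.72). For Tubb2b in WT mice it was 0.56 ± 0.21 (adjusted p = 0.117). For the difference between tissues in the SCA7 change, 0 isotypes passed by edgeR or by DESeq2, where 2.78% of all genes did by edgeR (unadjusted p = 0.0445 for Tubb4a).

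Depth moved with the level of some isotypes. Tuba1b, Tubb6 and Tuba4a differed between deep and shallow libraries of the same tissue at 9 weeks, in a fit with genotype as a term, and no other isotype passed by edgeR. Tuba1b was at 96.3 to 180 CPM in the 15 deep libraries and at 208 to 440 CPM in the 20 shallow ones of all ages, without overlap. Its log2 difference, deep over shallow, was -1.42 ± 0.14 in medulla and -1.38 ± 0.21 in cervical spinal cord (adjusted p = 6.39e-08 and 9.45e-05). Tubb6, at chr18:67390717-67402749 on the plus strand, was at 0.864 to 16.6 CPM in deep libraries and at 16.8 to 121 CPM in shallow ones, the lowest of which rests on 2 reads. Its log2 difference was -5.48 ± 0.40 and -4.50 ± 0.39 (adjusted p = 1.26e-10 and 1.47e-08). Tuba4a went the other way, by 0.55 ± 0.17 and 0.74 ± 0.20 (adjusted p = 0.0443 and 0.0451), and its calls held in 3 and 5 of 12 alternatives. They were lost without any 1 library except SCA7 replicate 2 and WT replicate 4 in medulla, and without any except WT replicates 1 and 5 and SCA7 replicate 1 in cervical spinal cord. In all, 3 of 10 isotypes passed in medulla, where 6.98% of all genes did, and 3 of 10 in cervical spinal cord, where 3.47% did. The median log2 difference over all genes was 0.31 in medulla and 0.36 in cervical spinal cord, so that relative to it Tuba4a was less far from the other genes and Tuba1b and Tubb6 were farther.

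Shared sequence was measured as the percent of 50-base windows of a transcript found at no other locus of the GENCODE transcripts. Genes that overlap the isotype on the chromosome were left aside. It was 17.8% for Tuba1b, 35.7% for Tuba1a, 49.1% for Tubb4b, 50.4% for Tubb2a and 60.7% for Tubb2b. It was 98.9% to 100% for Tuba4a, Tubb3, Tubb4a, Tubb5 and Tubb6. The isotypes that differed by depth were at 17.8% (Tuba1b), 98.9% (Tuba4a) and 100% (Tubb6) on this measure. Of the Tuba1a windows, 46.9% also occur in Tuba1c, another alpha isotype that lies outside the 10, and 43.4% in Tuba1b. Tuba1c was at 0.435 to 4.48 CPM in the deep libraries and at 360 to 1450 CPM in the shallow ones. Its 9-week log2 difference, deep over shallow, was -9.52 ± 0.20 in medulla and -9.40 ± 0.30 in cervical spinal cord (adjusted p = 1.01e-20 and 4.35e-16). Tuba1a, Tuba1b and Tuba1c together held 410 to 1580 CPM in deep and 838 to 4290 CPM in shallow libraries, so their sum differed with depth as well. The cause of these differences was not tested.

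**Figure D5:**
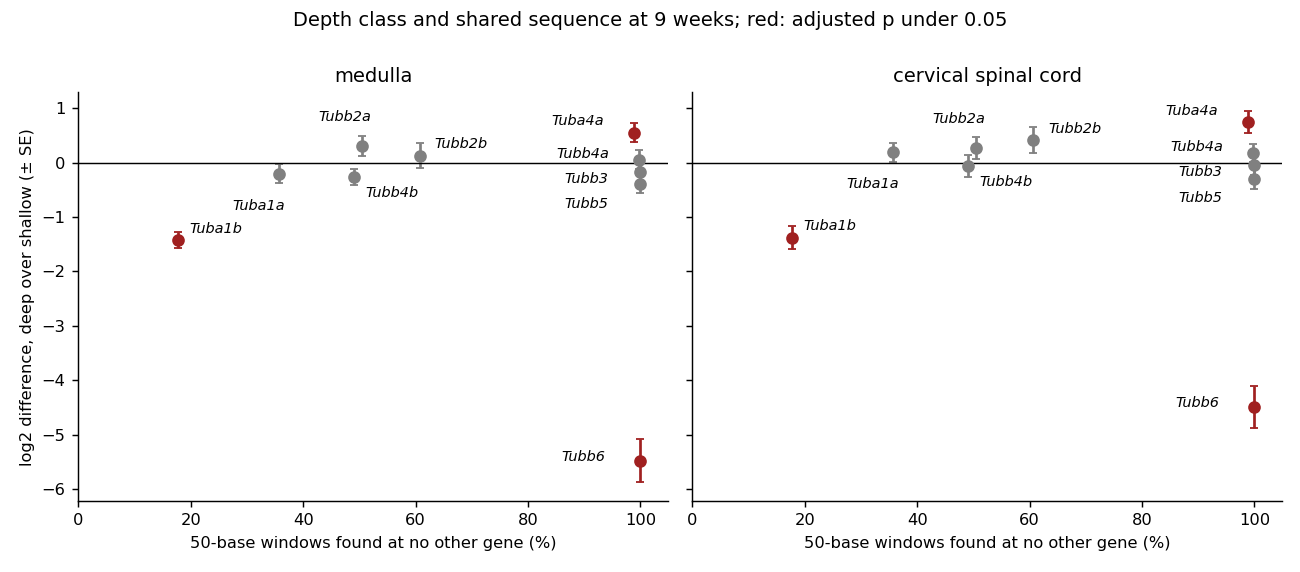
Log2 difference between deep and shallow libraries at 9 weeks (SE bars) against the percent of 50-base windows of each isotype found at no other gene, genes that overlap it on the chromosome left aside, in medulla (left) and cervical spinal cord (right), with points in red where the adjusted p is under 0.05. Tuba1b is at 17.8% and Tubb6 at 100% on the sequence axis, and both are lower in deep libraries.

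The log2 difference of Tubb4a by depth was 0.05 ± 0.17 in medulla and 0.18 ± 0.17 in cervical spinal cord and did not pass the test (adjusted p = 0.865 and 0.697). Of Tuba1a and Tuba1b reads together, Tuba1a took 75.1% to 92.5% in deep and 43.4% to 88.4% in shallow libraries. At the annotated loci, Gm49450 overlaps Tuba1a and Tuba1b on the same strand, Gm20388 overlaps Tubb3 on the same strand, and Gm41396, Stk16 and Fam166a overlap Tuba1b, Tuba4a and Tubb4b on the opposite strand. These genes do not enter the shared windows above, yet 47.7% of Tuba4a windows also occur in Stk16. In Gm49450 it is 38.4% of Tuba1a and 37.2% of Tuba1b windows. Whether counting used strand is not given in the sources used here, so reads over those overlaps are uncertain.

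Across the 35 libraries, the genes whose log2 level was most like that of Tubb4a, out of 784 with 10 or more reads in every library, were Mobp (Pearson r = 0.91), Ckb (0.88), Wnk1 (0.87), Phldb1 (0.87) and Glul (0.87). Mobp encodes a myelin protein, and Glul encodes glutamine synthetase. For Tubb2b, which was compared with 785 genes, they were Tuba1a (0.93), Tubb2a (0.91), Ctnnb1 (0.86), Sdc3 (0.86) and Tubb5 (0.85), 3 of which are isotypes themselves. These libraries share mice, ages, genotypes and depth classes, so the correlations are descriptions only.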

How the data were processed

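Whole-tissue RNA of 35 libraries from 18 mice was sequenced. The authors mapped reads to GRCm38 (mm10 per the labels), kept reads with a single genomic location, and deposited raw counts per gene for each library. Aligner, read length and the strand setting of counting are not given in the sources used here. The deposited counts were tested with edgeR 4.0.16 in R 4.3.3: genes with at least 10 counts in 1 library of the fit, TMM normalization, and the quasi-likelihood test with Benjamini-Hochberg adjustment over all genes tested and a threshold of 0.05, in place of the DESeq2 test of the study. SE is the log2 fold change divided by the root of F. Fits for SCA7 against WT used the groups compared. Fits across ages used all ages of a tissue label, and fits between tissues had the mouse as a block. Levels are CPM with TMM factors from all 35 libraries. Counting floors cover counting error only. The p-values measure the spread between libraries of separate mice, or within mice where the mouse is a block. In fits without a depth term this spread also holds the difference between deep and shallow libraries.

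Alternatives were DESeq2 1.42.0, its size factors, library totals, no filter, 10 counts in every library, replicate block, each library left out, each depth class by itself, depth class as a term, and thinning to the smallest total. In fits between tissues each mouse was left out in place of each library. Both tissue labels together and the bias-adjusted edgeR test were added after the data were seen. The scripts were tested on simulated data. The 10 isotypes, the gene lists and the rule for named genes (every isotype past the threshold, and up to 3 genes of a list by smallest adjusted p) were chosen with earlier results of these data known, and the tubulins Tubb4a and Tuba1a are among genes the study listed from the same cervical spinal cord libraries. Sequences, coordinates and shared windows (Python 3.11.15, Biopython 1.88) came from GENCODE vM21 transcripts of GRCm38. No 2 libraries of the same group and depth class, the only pairs compared, agreed within sampling noise (lowest chi-square per degree of freedom 1.06).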

Additional observations from a re-analysis of the deposited data

Results flagged for a closer look

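In WT cervical spinal cord at 9 weeks, replicate 1 lay far above the other 4 libraries of its group for 2 isotypes: Tuba1a was at 788 CPM, the nearest library at 568 CPM, and Tubb4a was at 1860 CPM, the nearest at 1360 CPM. Chance gives such a gap in about 1 in 20 groups. For independent sets this would be about 2 of the 40 sets of 5 libraries examined. These sets were not independent, since the isotypes were counted in the same libraries, so no conclusion is drawn from this expectation. The 2 gaps found were both from replicate 1. Its summed level of the isotypes was 5010 CPM, against 3570 to 3970 CPM in the other 4 libraries. Chi-square per degree of freedom between replicates 1 and 5, the deep libraries of the group, was 232.8, the highest of the library pairs compared. Without replicate 1 the log2 fold change of SCA7 against WT was -0.97 for Tuba1a (adjusted p = 0.0038, edgeR) and -1.14 for Tubb4a (adjusted p = 0.00192).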

How the results depend on the processing

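Of 32 isotype values past the threshold, 16 were past it in every alternative run for them, among them Tubb2b and Tuba1a in each comparison with P8. Of 118 not past it, 16 passed in 1 or more alternatives. For SCA7 against WT in medulla at 9 weeks (1 isotype past the threshold), the count was 0 with library totals, with 10 counts in every library, with the replicate block, in shallow libraries alone, after thinning to the smallest total and with the bias-adjusted test, 3 in deep libraries alone, 2 with depth as a block, and 0 to 3 with 1 library left out. In cervical spinal cord (3), it was 1 with library totals and 0 in deep libraries alone. At 5 weeks in medulla (2), it was 1 with library totals or 10 counts in every library, and 0 to 2 with 1 library left out. At 5 weeks in cervical spinal cord (1), it was 0 with DESeq2, library totals or 10 counts in every library, and 0 to 2 with 1 library left out. For WT medulla against P8, it was 2 at 5 weeks (4) with library totals and 2 to 3 with 1 library left out. At 9 weeks (5) it was 3 with library totals, 10 counts in every library or thinning, and 3 to 5 with 1 library left out. Between tissues (0) it was 0 to 2 in WT mice and 0 to 1 for the difference in the SCA7 change with 1 mouse, and so both its libraries, left out. Between deep and shallow medulla libraries (3) it was 1 with library totals and 5 with DESeq2. Of the values not past the threshold, 54 changed sign in 1 or more alternatives, as did 1 past it, Tubb6 at 5 weeks in cervical spinal cord (-0.16 to 5.46, at -0.16 without WT replicate 2). Among the former was Tubb4a in the same comparison (-0.46 to 0.00 with 1 library left out, just above 0 without WT replicate 1). Apart from smaller numbers of libraries, the causes were not tested.

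The replicate numbers did not pair the 9-week mice: the correlation of deviations ran from -0.80 to 0.94 in medulla and from -0.70 to 0.90 in cervical spinal cord. With the replicate block, Tubb4a in medulla had an adjusted p of 0.313, and 3 isotypes passed in cervical spinal cord. In shallow libraries a count of 3 was worth up to 31.28 CPM, which limits Tubb6 and Tubb2b. Of 60 isotype shares, 32 moved by more than 1 SD when counted per length and 12 in deep libraries alone.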
